A study of Homo sapiens with 12 samples.

Results

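The 10 genes described here carry glucose into the cell, split it to lactate, or are standard readouts of the response to low oxygen: SLC2A1, HK2, PFKFB3, PFKFB4, ALDOC, PGK1, ENO1, LDHA, VEGFA and CA9. They were taken by symbol from a count table of 58233 Ensembl genes, each symbol matched 1 gene, and all 10 passed the filter on low counts along with 15749 genes in total. Their levels were followed in 12 RNA-seq libraries of MCF10-A, an established line of non-tumour human breast epithelium. The line was passaged in medium with 5% horse serum. Every library came from cells then trypsinised and held without serum for 3 hours on poly-HEMA, a coating to which cells cannot attach, so no group was of attached cells. The 6 groups crossed 3 derivatives of the line (Vector, B4-4 and Addback) with 2 labels (NA and EDTA), and each had 2 libraries. EDTA is a chelator of divalent cations; the labels give neither its dose nor what NA means, nor do they say how B4-4 and Addback were made. The series title names the integrin a6b4, whose beta4 subunit is encoded by ITGB4. Nothing in the labels says that the 2 libraries of a group were separate cultures, so the p-values below may reflect technical spread only.

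Glucose enters these cells through facilitative transporters, is trapped by hexokinase, and runs through glycolysis to pyruvate, which lactate dehydrogenase reduces to lactate. When oxygen is short, prolyl hydroxylases stop marking the alpha subunits of hypoxia-inducible factor (HIF) for destruction, and HIF binds a short element with the core letters ACGTG or GCGTG near its target genes. All 10 genes are textbook HIF targets, and several also respond to growth factor signals, MYC or glucose itself.

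RefSeq promoters on GRCh38.p14 were on hand for 9 of the 10 genes, as the 250 bases before the RefSeq gene start; VEGFA had no entry. That start differs from the GENCODE start behind the gene coordinates given further on, so the CA9 and HK2 windows run into the GENCODE gene and the ALDOC and PFKFB4 windows lie within it. The 4 shown, on the strand of the gene, belong to the genes with an entry that differed most between the libraries of 1 group described next. Capitals mark ACGTG or GCGTG on either strand, so CACGT and CACGC are the same letters read from the opposite strand.
CA9: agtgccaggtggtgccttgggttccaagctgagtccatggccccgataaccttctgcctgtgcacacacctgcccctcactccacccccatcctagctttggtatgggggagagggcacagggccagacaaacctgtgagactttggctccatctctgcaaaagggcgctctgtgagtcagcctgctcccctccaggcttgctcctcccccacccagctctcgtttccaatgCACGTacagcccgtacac
ALDOC: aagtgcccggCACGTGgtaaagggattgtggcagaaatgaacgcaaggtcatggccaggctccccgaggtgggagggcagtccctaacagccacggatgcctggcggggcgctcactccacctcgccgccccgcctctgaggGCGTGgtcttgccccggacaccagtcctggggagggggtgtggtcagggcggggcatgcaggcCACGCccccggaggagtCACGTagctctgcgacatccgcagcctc
PFKFB4: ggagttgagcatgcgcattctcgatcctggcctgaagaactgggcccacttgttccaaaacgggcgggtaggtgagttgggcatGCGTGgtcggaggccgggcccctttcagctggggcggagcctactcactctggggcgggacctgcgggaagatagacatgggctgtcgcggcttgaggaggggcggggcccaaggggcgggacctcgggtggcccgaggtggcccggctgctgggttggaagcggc
HK2: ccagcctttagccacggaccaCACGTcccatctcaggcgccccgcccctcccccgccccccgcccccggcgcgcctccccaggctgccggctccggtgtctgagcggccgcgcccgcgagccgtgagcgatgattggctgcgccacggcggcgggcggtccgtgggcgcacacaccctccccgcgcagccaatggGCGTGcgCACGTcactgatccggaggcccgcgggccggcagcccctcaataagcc
The windows lie at chr9:35673678-35673927 on the plus strand, chr17:28576896-28577145 on the minus strand, chr3:48556804-48557053 on the minus strand and chr2:74833877-74834126 on the plus strand. CA9 (carbonic anhydrase IX, an enzyme of the cell surface that helps hold pH when acid is made) had 1 match, from -18 to -14 counted back from the RefSeq start. ALDOC had 5 matches, of which 2 were both strands of 1 palindrome, CACGTG, from -240 to -235. HK2 had 3 matches and PFKFB4 had 1, while SLC2A1 had 0. In all, 8 of 9 members held ACGTG or GCGTG in this window, against 43.1% of 27305 promoters of the same length; ACGTG alone was in 5 members and 18.7% of promoters, and GCGTG in 6 members and 31.9%. A match describes the letters and shows no binding.

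ITGB4, which checks the derivative labels, was at 1678 to 1850.3 CPM in the Vector libraries, 182 to 395 CPM in B4-4 and 1059.7 to 1525 CPM in Addback. CPM states a gene's reads relative to its library's total, which was scaled by TMM, a factor that evens out library composition. Library totals ran from 15685376 to 22156173 counts, and 3 counts correspond to 0.135 to 0.191 CPM. The 8 basal mammary epithelial markers were all tested and summed to 9513 to 13818 CPM, while markers of fibroblasts summed to at most 68.1 CPM, of leukocytes to 54.8 CPM, of endothelium to 34.7 CPM and of adipocytes to 0.463 CPM. The leukocyte sum was mostly CD14 and the endothelial sum mostly PECAM1. The library numbers in the labels fall into a lower and a higher run of 6 libraries each. The lower run holds all 4 Addback libraries, Vector EDTA library 2 and B4-4 NA library 2, so Addback against Vector in NA, and against B4-4 in EDTA, lie wholly between runs. Only the Vector EDTA and B4-4 NA pairs span both runs, so a term for run, used below, rests on these pairs alone. Addback EDTA library 2 was alone on lane 7, and the other 11 libraries were on lane 8.

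One pair of libraries stood apart for these genes, and it decides how far each comparison can be read. In B4-4 NA, all 10 genes were higher in library 1 than in library 2, against 47.5% of tested genes, and 7 of 10 were at least 2-fold higher, against 5.80%. The median ratio was 2.68, while the all-gene median log2 ratio was -0.03. CA9 gave 952 counts in library 1 and 21 in library 2, a CPM ratio of 40.7 (exact 95% interval 26.5 to 66.1, counting error only, as for the intervals that follow). The ratio was 3.97 for VEGFA (3.59 to 4.40), 3.90 for ALDOC (3.30 to 4.63), 3.77 for PFKFB4 (3.25 to 4.39) and 3.10 for HK2 (2.86 to 3.36). PFKFB3 at 2.32 and SLC2A1 at 2.12 followed, and the 3 abundant enzymes differed least: LDHA 1.59, PGK1 1.38 and ENO1 1.16. These ratios exceed counting error, and the labels give the libraries the same group, although their numbers belong to different runs. ITGB4 itself was 182 CPM in library 1 and 395 CPM in library 2. Summed endothelial markers ran from 9.26 to 25.7 CPM in this pair, mostly PECAM1 at 24.9 and 8.81 CPM, and the 5 tested fibroblast markers had a median ratio of 0.589; their part in the result was not tested.

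**Figure D1:**
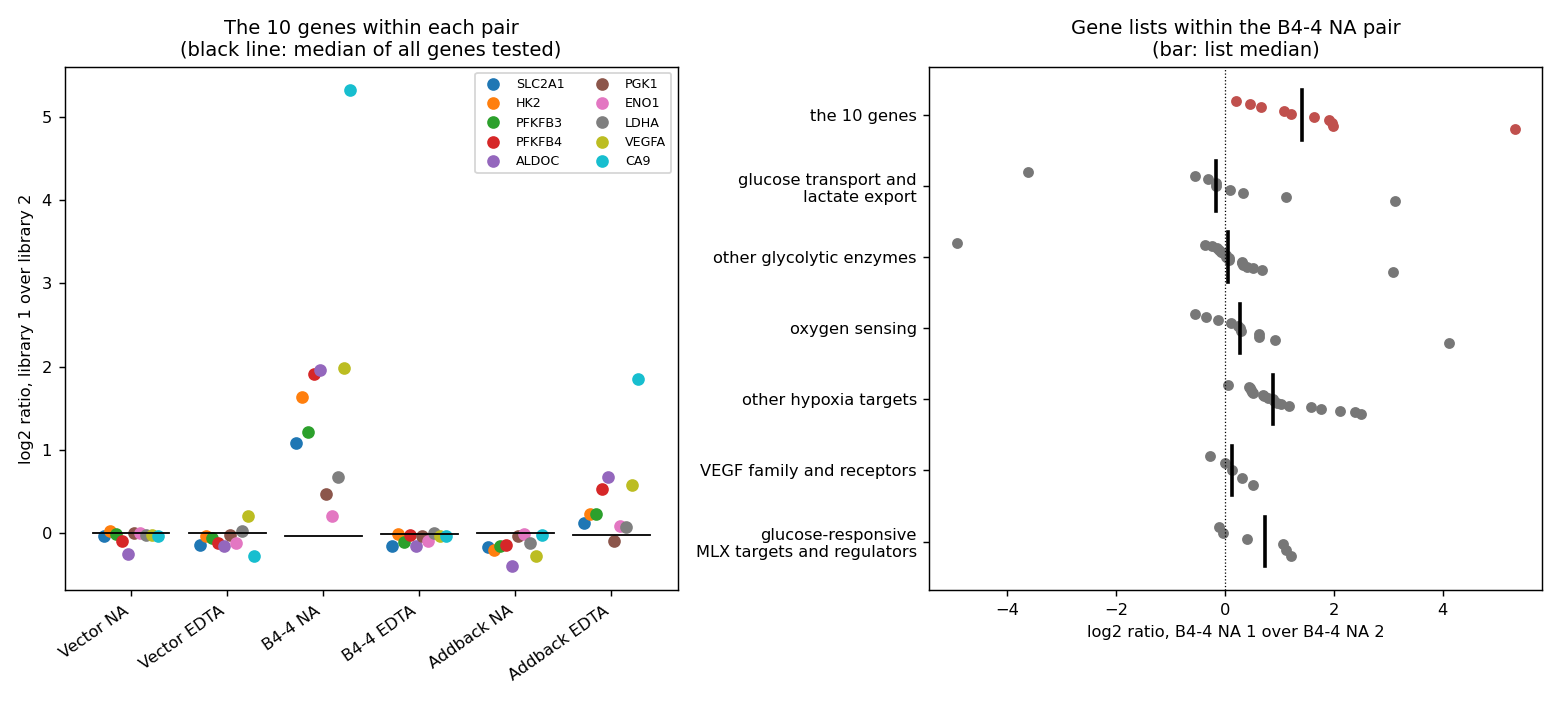
Left, log2 ratio of CPM in library 1 over library 2 for each of the 10 genes (points) in the 6 groups, with a black line at the median of all tested genes. Right, the B4-4 NA pair by gene list, 1 point per gene, with a bar at each list's median; members have a median ratio of 2.68, other hypoxia targets 1.84 and other glycolytic enzymes 1.04.

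Addback EDTA, whose libraries were on different lanes, was the next most uneven pair. There 9 of 10 genes were higher in library 1 (47.9% of tested genes were), 1 of them at least 2-fold (7.02%), and the median ratio was 1.17. CA9 had 218 and 62 counts, a ratio of 3.62 (2.72 to 4.87), ALDOC differed 1.60-fold and VEGFA 1.49-fold. In this pair the summed markers ran from 8.64 to 35.3 CPM for leukocytes, mostly CD14 at 35.3 and 8.59 CPM. For endothelium they ran from 12.2 to 34.7 CPM, mostly PECAM1 at 34.2 and 11.6 CPM. The part of these markers in the result was not tested. In the other 4 pairs no member differed by more than 1.32-fold.

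The imbalance in B4-4 NA extended beyond the members, although not evenly over the pathway. Of 19 tested other hypoxia targets, 19 were higher in library 1, 7 of them at least 2-fold. Of 18 other glycolytic enzymes, 11 were higher, 1 was at least 2-fold higher and 1 was at least 2-fold lower. The genes named next, apart from HIF1A and EPAS1, were picked after their values were seen. ENO2, a neuronal-type enolase and the glycolytic gene counted as at least 2-fold higher, had 117 and 12 counts. HKDC1, the glycolytic gene counted as lower, had 0 and 13. EGLN3, a HIF-induced prolyl hydroxylase, had 646 and 33 counts, and SLC2A3, a high-affinity glucose transporter, had 383 and 39. Their lists did not share such ratios. Of 9 tested glucose transport and lactate export genes, 4 were higher in library 1, 2 of them at least 2-fold, and 1 was at least 2-fold lower (median ratio 0.893). Of 11 tested oxygen-sensing genes, 8 were higher, 1 of them at least 2-fold (median ratio 1.21). ADM and NDRG1, both classic hypoxia-response genes, differed 5.71-fold and 5.25-fold. HIF1A, the regulated subunit of HIF-1, differed 1.21-fold and EPAS1, its HIF-2 counterpart, 1.08-fold.

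Per kilobase of exon, mean levels were 551 CPM for ENO1, 407 for LDHA and 135 for PGK1, followed by 27.1 for SLC2A1, 17.0 for HK2, 11.4 for CA9, 7.06 for ALDOC, 5.52 for VEGFA and 3.26 for PFKFB4; PFKFB3 lay between CA9 and ALDOC. The SD of log2 CPM over the 12 libraries was 1.49 for CA9, 0.74 for ALDOC, 0.61 for PFKFB4 and for VEGFA, and 0.19 for PGK1, the least variable. B4-4 NA library 1 held the highest level of 9 of the 10 genes; the exception was ENO1, highest in Addback EDTA library 1.

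**Figure D2:**
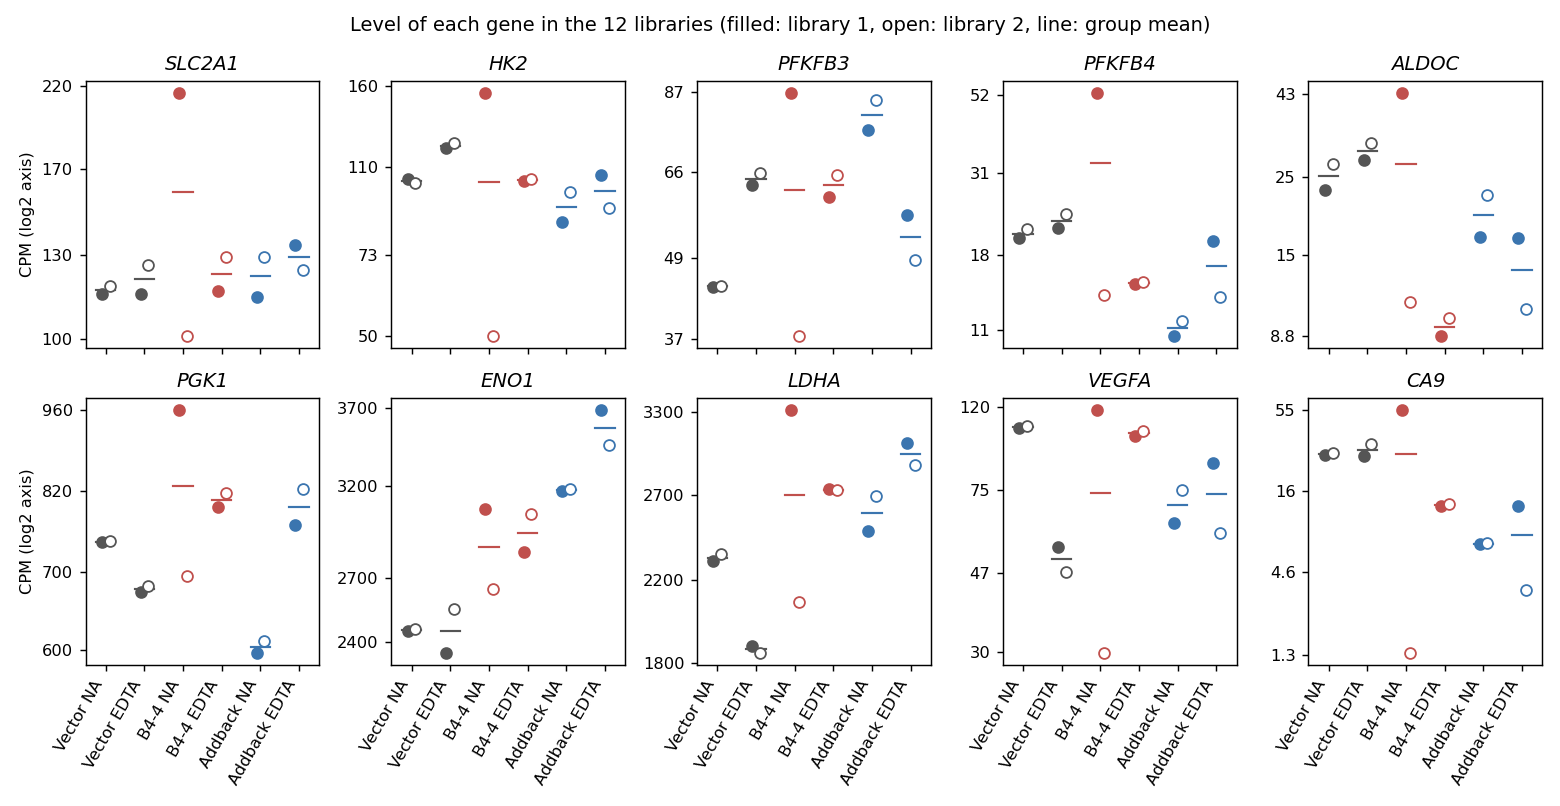
CPM (log2 axis) of the 10 genes in the 12 libraries, by group. Filled points are library 1, open points library 2 and lines the group mean, and each panel has its own axis range; the B4-4 NA points differ 1.16-fold for ENO1 and 40.7-fold for CA9, which spans 1.34 to 54.7 CPM.

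In the comparisons, all 12 libraries were fitted together with edgeR's quasi-likelihood test, and a gene was called where its p, adjusted by the Benjamini-Hochberg method across the 15749 tested genes, was under 0.05. Fold changes are on the log2 scale with their standard error (SE). Because every group shares 1 estimate of the spread per gene, the B4-4 NA pair also widens the SE of comparisons that do not use it. Each count is therefore followed, where it changes, by the count without both B4-4 NA libraries, a fit chosen after seeing the data.

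The genes of glucose entry and trapping were called in no comparison with all 12 libraries. SLC2A1, the GLUT1 transporter (GRCh38 chr1:42925375-42959176), was at 115 and 118 CPM in Vector NA, 115 and 126 in Vector EDTA, 215 and 101 in B4-4 NA, 116 and 129 in B4-4 EDTA, 114 and 129 in Addback NA, and 134 and 124 in Addback EDTA. Only B4-4 NA library 1 left a narrow band, and SLC2A1 passed no comparison; the largest change was 0.44 ± 0.27 (SE), between B4-4 and Vector in NA (edgeR adjusted p = 0.355). HK2, the inducible hexokinase (chr2:74833981-74893359), was at 104 and 102 CPM in Vector NA, 119.8 and 123 in Vector EDTA, 155 and 50.0 in B4-4 NA, 103 and 104 in B4-4 EDTA, 84.8 and 97.6 in Addback NA, and 106 and 90.6 in Addback EDTA. Both Vector EDTA values lay above all values except B4-4 NA library 1, and again no comparison called HK2. Without both B4-4 NA libraries, HK2 was lower than Vector EDTA in B4-4 EDTA (-0.23, adjusted p = 0.0479) and in Addback EDTA (-0.30, adjusted p = 0.0183).

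PFKFB3 and PFKFB4 make and break fructose 2,6-bisphosphate, the activator of phosphofructokinase, and neither paralog was called in any comparison with all 12 libraries. PFKFB3 (chr10:6144934-6254644) was at 44.3 and 44.5 CPM in Vector NA, 63.1 and 65.8 in Vector EDTA, 86.7 and 37.4 in B4-4 NA, 60.6 and 65.4 in B4-4 EDTA, 76.3 and 84.6 in Addback NA, and 56.8 and 48.6 in Addback EDTA. EDTA libraries were above NA in Vector and below NA in Addback, with no overlap in either. With 2 libraries a side, HK2, PFKFB4 and ALDOC were also separated by EDTA in Vector without a call. No share of all genes is given beside such separations, for any gene here. The EDTA change was 0.54 ± 0.30 in Vector (adjusted p = 0.275) and -0.61 ± 0.30 in Addback (adjusted p = 0.207), neither called. Without both B4-4 NA libraries the same changes were called (adjusted p = 0.00154 and 0.000696), as was their difference of -1.15 (5.45e-05, against 0.0865 with all 12). PFKFB4 (chr3:48517684-48562015) was at 20.2 and 21.4 CPM in Vector NA, 21.6 and 23.6 in Vector EDTA, 52.5 and 13.9 in B4-4 NA, 14.9 and 15.1 in B4-4 EDTA, 10.6 and 11.7 in Addback NA, and 19.8 and 13.7 in Addback EDTA. Addback NA held its lowest levels, and Addback against Vector in NA was -0.90 ± 0.52 (adjusted p = 0.219, and 0.000619 without both B4-4 NA libraries).

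Of the 8 calls between groups with all 12 libraries, all for ALDOC, PGK1, ENO1 or LDHA, 7 were between derivatives and 1 was between EDTA and NA. ALDOC, the brain-type aldolase (chr17:28573115-28577264), was at 22.9 and 27.2 CPM in Vector NA, 27.9 and 31.2 in Vector EDTA, 43.1 and 11.0 in B4-4 NA, 8.84 and 9.90 in B4-4 EDTA, 16.8 and 22.2 in Addback NA, and 16.7 and 10.5 in Addback EDTA. In EDTA it fell from Vector to B4-4 by 1.65 ± 0.56 on the log2 scale (adjusted p = 0.0455). That call was lost in 10 of the 12 fits that left out 1 library, all except those without B4-4 NA library 1 or 2, with adjusted p up to 0.198, and also without the filter on low counts (0.14) or with a replicate block (0.0547). In the added fit without both, Addback against Vector in EDTA was also called for ALDOC (-1.12, adjusted p = 0.00118).

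PGK1, the first ATP-making step (chrX:77910739-78129296), was at 742 and 743 CPM in Vector NA, 673 and 681 in Vector EDTA, 960.0 and 694 in B4-4 NA, 795 and 816 in B4-4 EDTA, 597 and 611 in Addback NA, and 767 and 823 in Addback EDTA. EDTA libraries were above NA in Addback and below in Vector. The rise in Addback was 0.40 ± 0.12 (adjusted p = 0.0446), against -0.13 ± 0.12 in Vector (adjusted p = 0.508), and the difference between those effects was 0.53 ± 0.17 (adjusted p = 0.0432). Leaving out 1 library ended the Addback call in 10 of 12 fits (adjusted p up to 0.228), all except those without B4-4 NA library 1 or 2. It ended the call on the difference in 9 (up to 0.144), which held without B4-4 NA library 1, B4-4 NA library 2 or Addback EDTA library 1. Both calls also ended with RLE or upper-quartile scaling or a replicate block (0.051 to 0.0705), and the difference with a term for library number run (0.0694). PGK1 was also lower in Addback NA than in B4-4 NA (-0.45 ± 0.12, adjusted p = 0.0199), but without B4-4 NA library 1 the change was -0.19 (adjusted p = 0.107), and the call also ended without Addback NA library 1 or 2 (up to 0.126), with the run term (0.0572) and with those groups fitted alone (0.164).

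ENO1, the enolase of most tissues (chr1:8861000-8879250), was at 2449.6 and 2455 CPM in Vector NA, 2350.2 and 2547 in Vector EDTA, 3068 and 2647 in B4-4 NA, 2833 and 3040.4 in B4-4 EDTA, 3173 and 3185 in Addback NA, and 3683 and 3452 in Addback EDTA. All 4 Addback libraries lay above all 8 others, and no Vector library reached the lowest B4-4 value. Addback exceeded Vector by 0.37 ± 0.09 in NA (adjusted p = 0.00763) and by 0.54 ± 0.09 in EDTA (adjusted p = 0.0011), and B4-4 exceeded Vector in EDTA by 0.26 ± 0.09 (adjusted p = 0.0357). The Addback EDTA difference held in every fit that left out 1 library (adjusted p up to 0.0247). The Addback NA call was lost without Vector NA library 1 or 2 (up to 0.069), and the B4-4 call without any 1 of the 4 Vector or 2 B4-4 EDTA libraries (up to 0.275). The B4-4 call also ended under RLE and upper-quartile scaling, without the filter, with the run term and in DESeq2 (0.0551 to 0.171). With the run term, Addback against Vector was 0.42 in NA (0.0284) and 0.57 in EDTA (0.0016).

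LDHA, which turns pyruvate into lactate (chr11:18394388-18408425), was at 2303 and 2339 CPM in Vector NA, 1876 and 1845 in Vector EDTA, 3310.3 and 2087 in B4-4 NA, 2737 and 2731 in B4-4 EDTA, 2477 and 2689.6 in Addback NA, and 3056 and 2904 in Addback EDTA. The 2 Vector EDTA libraries were the lowest of the 12. In EDTA, LDHA was higher than Vector by 0.56 ± 0.16 in B4-4 (adjusted p = 0.0143) and by 0.68 ± 0.16 in Addback (adjusted p = 0.00787). Leaving out either Vector EDTA library ended both calls, and leaving out either B4-4 EDTA library ended the B4-4 one, with adjusted p up to 0.0915 for B4-4 and 0.068 for Addback. The EDTA change in Vector was -0.32 ± 0.16 (adjusted p = 0.198), and -0.32 ± 0.07 (0.00418) without both B4-4 NA libraries.

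Neither the secreted nor the surface readout was called with all 12 libraries. VEGFA, the main angiogenic growth factor (chr6:43770184-43786487), was at 107 and 108 CPM in Vector NA, 54.4 and 47.1 in Vector EDTA, 118 and 29.8 in B4-4 NA, 102 and 105 in B4-4 EDTA, 62.4 and 75.2 in Addback NA, and 87.7 and 58.8 in Addback EDTA. Both Vector EDTA libraries lay below both Vector NA libraries and both B4-4 EDTA libraries. The EDTA change in Vector was -1.08 ± 0.55 (adjusted p = 0.241), and -1.08 ± 0.16 (0.00105) without both B4-4 NA libraries; B4-4 against Vector in EDTA was 1.02 ± 0.55 (adjusted p = 0.177, and 0.000475). CA9 (chr9:35673856-35681159) was at 27.7 and 28.4 CPM in Vector NA, 27.2 and 32.7 in Vector EDTA, 54.7 and 1.34 in B4-4 NA, 12.6 and 13.0 in B4-4 EDTA, 7.05 and 7.15 in Addback NA, and 12.7 and 3.53 in Addback EDTA. All 4 Vector libraries were above all Addback and B4-4 EDTA libraries. Addback against Vector in NA was -1.98 ± 1.28 (adjusted p = 0.277, and 0.0124 without both B4-4 NA libraries), so CA9 passed no comparison with all 12 libraries. With the run term that change was -0.20 ± 1.83 (adjusted p = 0.949). The B4-4 NA pair, 40.7-fold apart in CA9, helps set that term, so the term cannot tell a run effect from this gap.

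**Figure D3:**
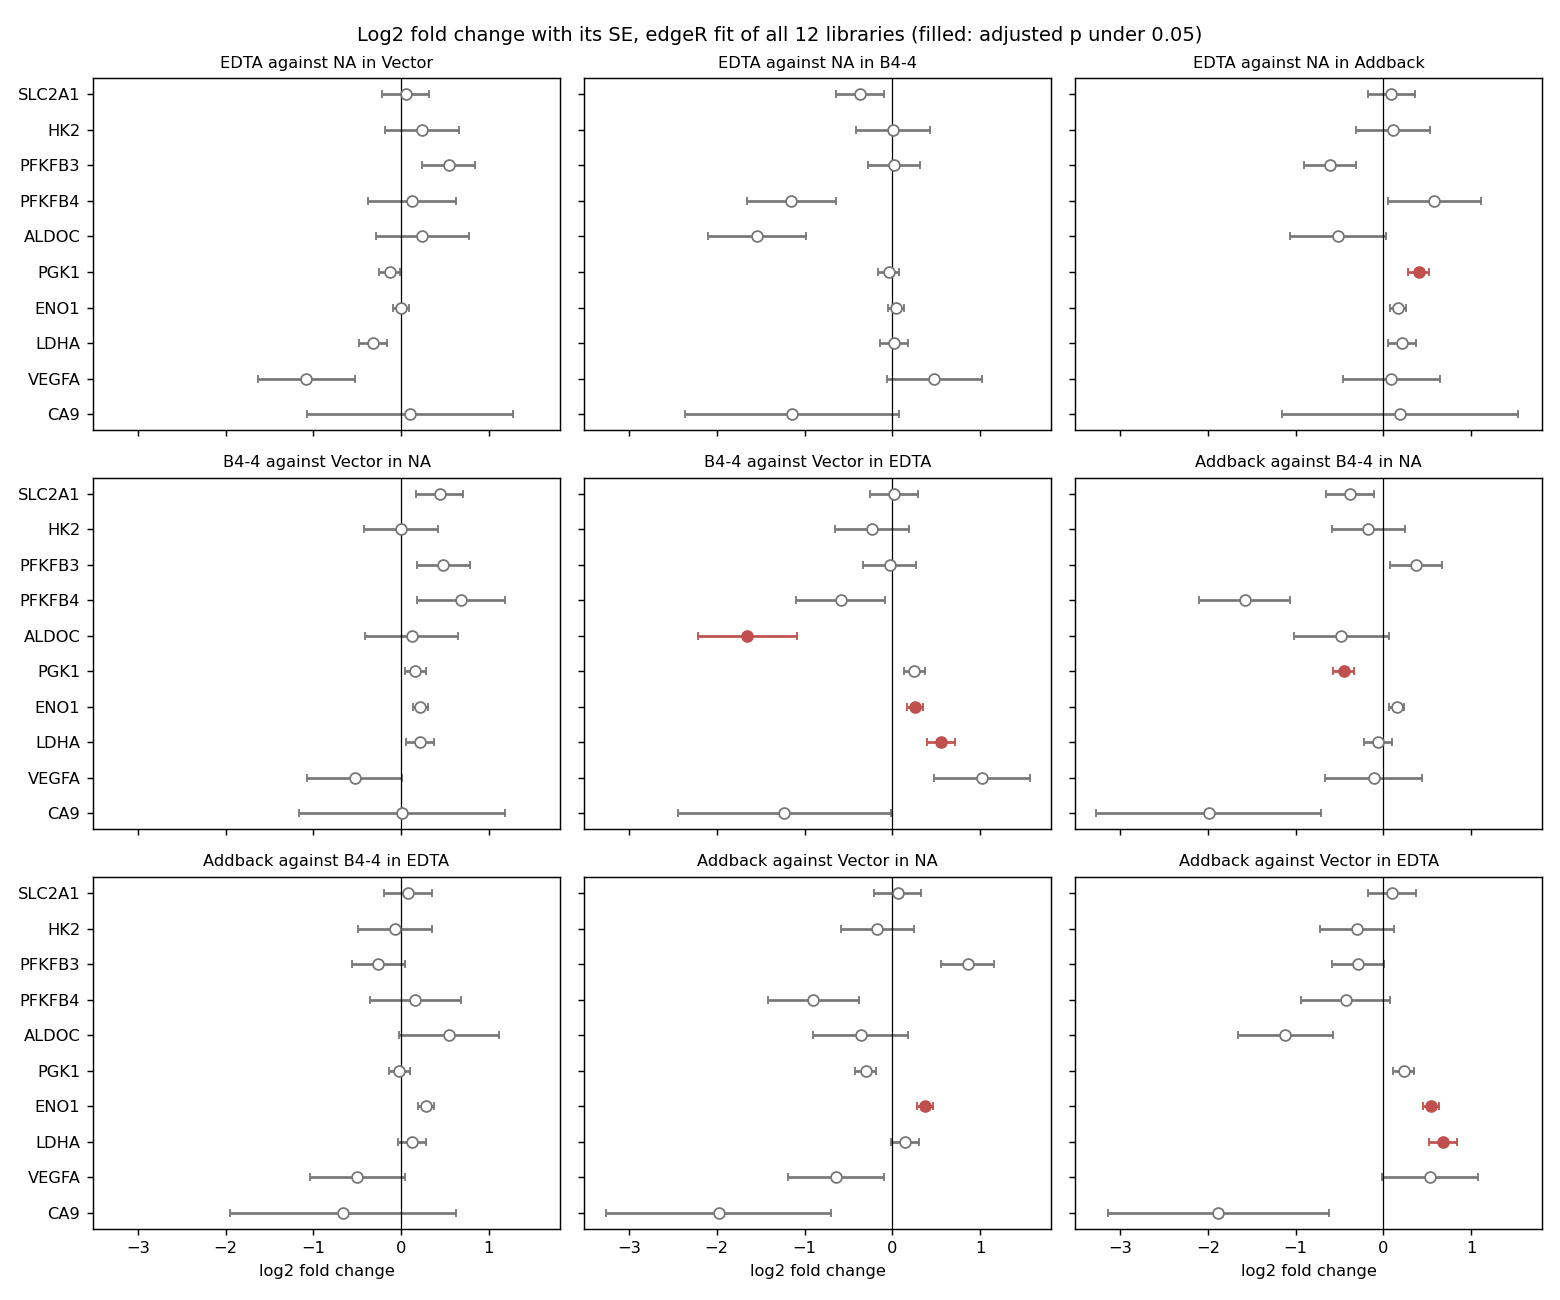
Log2 fold change of the 10 genes in the 9 comparisons between groups, with bars of 1 SE; filled points passed the test with all 12 libraries. The short bars belong to ENO1, PGK1 and LDHA, and CA9 has the longest.

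EDTA against NA called 0 of the 10 genes in Vector, where 15.3% of all tested genes were called, 0 of 10 in B4-4 (19.9%) and 1 of 10 in Addback (16.9%, PGK1). At an unadjusted p under 0.05 the numbers were 0, 1 and 1. The share of all genes at that level was not taken, here or below, so such numbers have no background. DESeq2 called 0, 1 (ALDOC) and 1, against 15.6%, 21.8% and 17.2% of the genes it tested. The median log2 change of the members was 0.07 in Vector, -0.01 in B4-4 and 0.14 in Addback, beside 0, -0.01 and 0.01 over all genes. Without both B4-4 NA libraries 3 of 10 were called in Vector (25.4% of genes: LDHA and VEGFA lower, PFKFB3 higher) and 4 of 10 in Addback (27.4%: PFKFB3 lower, LDHA, PFKFB4 and PGK1 higher). In B4-4 the answer depended on which NA library was kept, the lone library being assumed to vary like the other groups. Without library 1, 5 genes were called higher with EDTA (14.6% of all genes were) and 0 lower (12.8%). Without library 2, 8 were called lower (9.50%) and 0 higher (9.93%). CA9 changed by 3.25 in the former and by -2.09 in the latter, and HK2 by 1.05 and -0.58.

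**Figure D4:**
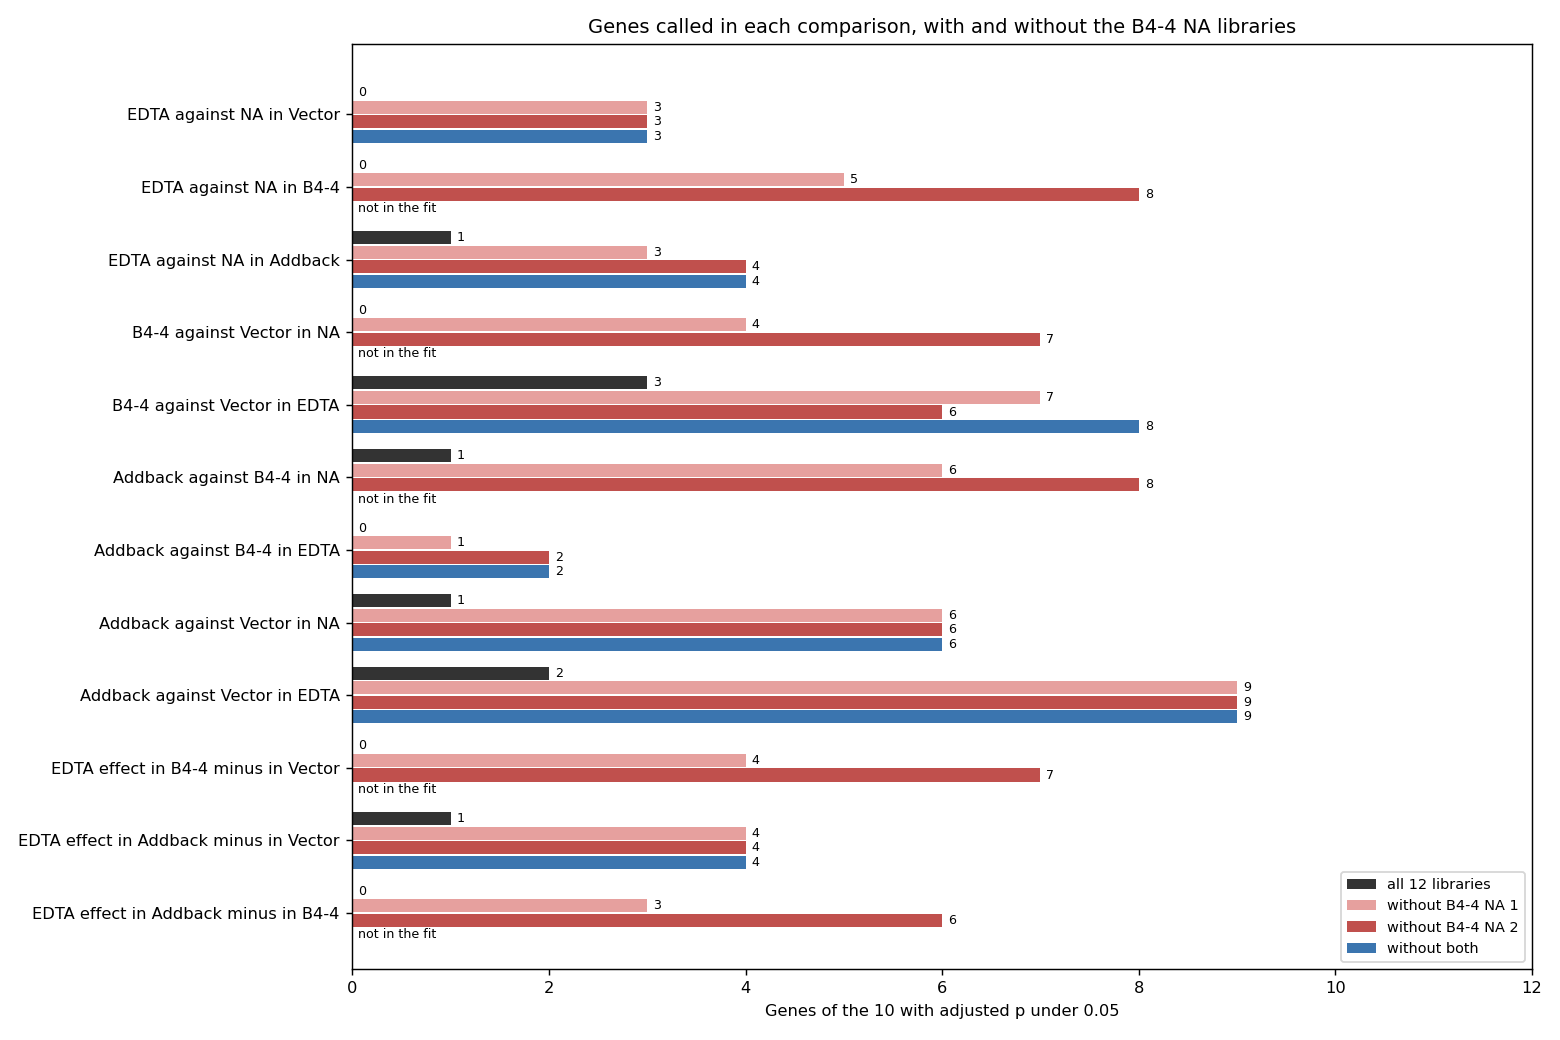
Number of the 10 genes called in each comparison (bars) with all 12 libraries, without B4-4 NA library 1, without library 2, and without both. In B4-4 against Vector in NA the bars stand at 0, 4 and 7, and the fit without both libraries gives no value there.

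B4-4 against Vector in NA called 0 of 10 genes (7.16% of all genes), with a median of 0.19 against 0.02 over all genes. At an unadjusted p under 0.05 there was 1, and DESeq2 called 0 (10.4% of the genes it tested). Without B4-4 NA library 1, 4 genes were called lower in B4-4 (ALDOC, CA9, HK2 and VEGFA; 11.0% of all genes were) and 0 higher (9.03%). Without library 2, 7 genes were called higher (4.51%) and 0 lower (4.51%). In EDTA, B4-4 against Vector called 3 of 10 (43.4%): ENO1 and LDHA higher, ALDOC lower, with a median of -0.01 against 0. Without both B4-4 NA libraries 8 of 10 were called (51.4%), 4 higher (ENO1, LDHA, PGK1 and VEGFA) and 4 lower (ALDOC, CA9, HK2 and PFKFB4).

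Addback against B4-4 called 1 of 10 genes in NA (23.6%, PGK1 lower) and 0 of 10 in EDTA (14.1%). In EDTA 1 gene had an unadjusted p under 0.05, and DESeq2 called 0 (14.8% of the genes it tested). The NA comparison turned with the library kept: without B4-4 NA library 1, 6 genes were called higher in Addback (14.2% of all genes) and 0 lower (14.0%), and without library 2, 8 were called lower (13.0%) and 0 higher (10.8%). VEGFA changed by 1.22 in the former fit and by -0.79 in the latter. Without both, 2 genes were called in EDTA (23.8%): ENO1 higher (0.28, adjusted p = 0.0124) and VEGFA lower (-0.50, adjusted p = 0.0492).

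Addback against Vector called 1 of 10 genes in NA (36.1%, ENO1 higher) and 2 of 10 in EDTA (30.0%, ENO1 and LDHA higher). The member medians were -0.23 and -0.10, beside 0.01 and 0.01 over all genes. In the same NA comparison 5 of 5 tested fibroblast markers were called higher in Addback (median 2.17), as was CD14, the 1 tested leukocyte marker (1.91). In EDTA 1 and 0 were called higher. The part of these markers in the result was not tested. Without both B4-4 NA libraries 6 of 10 were called in NA (45.4%; ENO1 and PFKFB3 higher, CA9, PFKFB4, PGK1 and VEGFA lower). In EDTA 9 of 10 were called (39.3%), leaving SLC2A1. ENO1, LDHA, PGK1 and VEGFA were higher and ALDOC, CA9, HK2, PFKFB3 and PFKFB4 lower. Because that fit was chosen for the spread of these same genes, its counts cannot be weighed against those shares. With all 12 libraries, by contrast, the share of members called was below the share of all genes called in each of the 12 comparisons.

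Whether the EDTA effect differed between derivatives was tested directly; the 3 differences share groups with one another. B4-4 minus Vector called 0 of 10 (27.0% of genes), Addback minus Vector 1 (24.2%, PGK1) and Addback minus B4-4 0 (8.78%). At an unadjusted p under 0.05, B4-4 minus Vector had 0 and Addback minus B4-4 had 2. DESeq2 called 0 of 10 in both (25.8% and 11.7% of the genes it tested). Without B4-4 NA library 1, B4-4 minus Vector called 4 genes higher (17.8% of all genes) and 0 lower (15.5%), and without library 2 it called 6 lower (13.4%) and 1 higher (15.9%). For Addback minus B4-4 the counts were 3 lower (9.29%) and 0 higher (8.77%) without library 1, and 6 higher (7.34%) and 0 lower (7.23%) without library 2. Without both libraries, Addback minus Vector called 4 (33.7%): LDHA (0.53), PGK1 and VEGFA (1.17) higher and PFKFB3 lower.

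The rest of the pathway was read from lists of related genes. EDTA against NA called 3 of 18 other glycolytic enzymes in Vector (1 higher, 2 lower), 4 in B4-4 (2 and 2) and 2 in Addback (2 higher). Of all genes 15.3%, 19.9% and 16.9% were called, and these 3 shares are the background for each list that follows. Without both B4-4 NA libraries 6 were called in Vector (2 higher, 4 lower) and 5 in Addback (all higher), against 25.4% and 27.4% of all genes. Fold changes and p-values of single genes below are from all 12 libraries unless stated. PFKP, the platelet-type phosphofructokinase, was at 306 and 305 CPM in Vector NA and 249 and 256 in Vector EDTA, but at 344 and 361 in B4-4 NA, 415 and 431 in B4-4 EDTA, 265 and 254 in Addback NA, and 310.4 and 336 in Addback EDTA. It thus fell with EDTA in Vector (-0.27, adjusted p = 0.0449) and rose in B4-4 (0.26, 0.0445) and Addback (0.32, 0.024), although leaving out 1 library ended these calls in 8, 9 and 7 of 12 fits (adjusted p up to 0.225, 0.259 and 0.149). PGAM1, phosphoglycerate mutase, was at 519 and 509 CPM in Vector NA, 374 and 399 in Vector EDTA, 430.0 and 446 in Addback NA, and 595 and 563 in Addback EDTA. It fell in Vector (-0.41, adjusted p = 0.0234) and rose in Addback (0.40, 0.024), calls that 6 and 8 of the 12 fits ended (up to 0.193 and 0.169). TIGAR, which opposes PFKFB enzymes by lowering fructose 2,6-bisphosphate, was at 28.1 and 28.7 CPM in B4-4 NA and 52.1 and 56.9 in B4-4 EDTA, a rise of 0.94 (adjusted p = 0.00046) that every such fit kept.

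**Figure D5:**
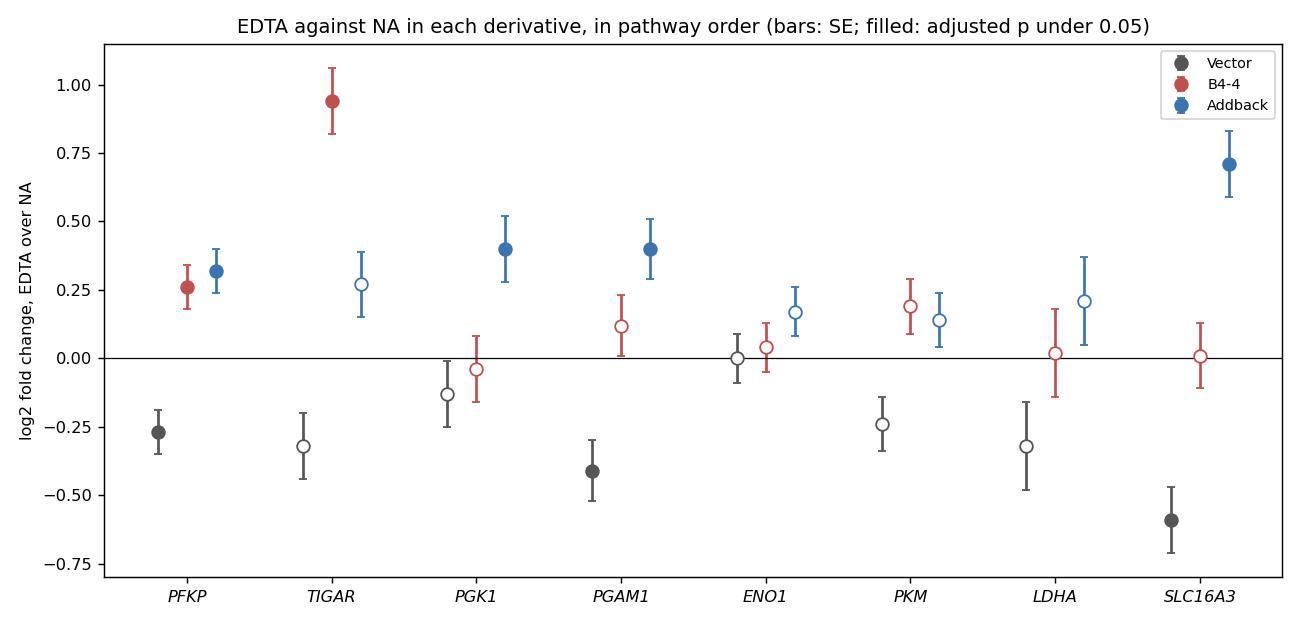
Log2 change with EDTA in the 3 derivatives for a selection of 8 genes of glycolysis, its control and lactate export, with bars of 1 SE. Of the 18 other glycolytic enzymes, most of them not shown, 15 were not called in Vector, 14 in B4-4 and 16 in Addback. Filled points passed the test with all 12 libraries. SLC16A3 runs from -0.59 in Vector to 0.71 in Addback, and TIGAR has its high point, 0.94, in B4-4.

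Among 9 tested transport and lactate export genes, EDTA called 2 lower in Vector, 1 lower in B4-4 and 2 higher in Addback (background 15.3%, 19.9% and 16.9%). Without both B4-4 NA libraries 4 were called in Vector (1 higher, 3 lower), against 25.4% of all genes. SLC16A3, the lactate exporter MCT4, was at 399 and 394 CPM in Vector NA, 234 and 292 in Vector EDTA, 328 and 405 in B4-4 NA, 347 and 390.4 in B4-4 EDTA, 278 and 263 in Addback NA, and 439 and 446 in Addback EDTA. It fell with EDTA in Vector (-0.59, adjusted p = 0.00745), rose in Addback (0.71, 0.00301) and did not pass in B4-4 (0.01, 0.971). The Addback call held in every fit that left out 1 library, and the Vector call was lost in 3 of 12 (up to 0.0908).

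Of 19 tested other hypoxia targets, EDTA called 2 in Vector (both lower), 4 in B4-4 (1 higher, 3 lower) and 3 in Addback (2 higher, 1 lower), against 15.3%, 19.9% and 16.9% of all genes. Without both B4-4 NA libraries 9 were called in Vector (5 higher, 4 lower) and 10 in Addback (3 higher, 7 lower), against 25.4% and 27.4%. STC2, a secreted glycoprotein, was at 143 and 142 CPM in Vector NA, 42.6 and 44.1 in Vector EDTA, and 46.4 to 67.2 CPM in the 8 other libraries, so only Vector NA stood high. It fell with EDTA in Vector by 1.71 ± 0.14 on the log2 scale (adjusted p = 2.16e-05). ANGPTL4, an inhibitor of lipoprotein lipase, was at 116 and 116 CPM in Vector NA, 47.0 and 54.0 in Vector EDTA, 203 and 116 in B4-4 NA, 484 and 544 in B4-4 EDTA, 16.7 and 31.2 in Addback NA, and 173 and 221 in Addback EDTA. Its EDTA change was -1.20 in Vector (adjusted p = 0.0365, lost in 6 of 12 fits that left out 1 library, up to 0.218), 1.69 in B4-4 (0.00883, lost in 2, up to 0.0678) and 3.04 in Addback (0.000919, kept in all 12). P4HA2, a collagen prolyl hydroxylase, was at 47.3 to 56.8 CPM in the 4 Addback libraries and at 74.1 to 101 CPM in the 8 others, and was called lower in all 4 comparisons of Addback with B4-4 or Vector, also with any 1 library left out.

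Of 11 tested oxygen-sensing genes, 1 was called with EDTA in Vector (higher), 1 in B4-4 (higher) and 2 in Addback (lower), against the same 15.3%, 19.9% and 16.9%. Without both B4-4 NA libraries 2 were called in Vector (1 higher, 1 lower) and 4 in Addback (all lower), against 25.4% and 27.4%. HIF1A was at 351 and 352 CPM in Vector NA, 314 and 241 in Vector EDTA, 254 and 209 in B4-4 NA, 376 and 355 in B4-4 EDTA, 496 and 462 in Addback NA, and 412 and 374 in Addback EDTA. B4-4 NA was low in both libraries, although those libraries differed so widely in the 10 genes. HIF1A was lower than Vector in B4-4 NA (-0.60, adjusted p = 0.0175, lost in 2 of 12 fits that left out 1 library, up to 0.135) and higher in Addback NA than in B4-4 NA (1.05, 0.000197, kept in all 12). With EDTA it rose in B4-4 (0.66, adjusted p = 0.00522, lost without B4-4 EDTA library 1, 0.0599). EPAS1 was at 236 and 237 CPM in Vector NA, 277 and 276 in Vector EDTA, 259 and 239 in B4-4 NA, 278 and 280.4 in B4-4 EDTA, 291 and 282 in Addback NA, and 230.0 and 198 in Addback EDTA. It fell with EDTA in Addback (-0.42, adjusted p = 0.00989, lost in 3 of 12, up to 0.101) and passed in neither other derivative.

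TXNIP, a glucose-induced brake on glucose uptake, was at 462 and 444 CPM in Vector NA, 119.8 and 119 in Vector EDTA, 113 and 52.1 in B4-4 NA, 33.4 and 33.8 in B4-4 EDTA, 132 and 111 in Addback NA, and 318 and 71.3 in Addback EDTA. The level in Vector NA was the highest of the groups, yet TXNIP passed no comparison (EDTA in Vector -1.92 ± 0.67, adjusted p = 0.109), and its Addback EDTA libraries lay far apart. EDTA called 2 of the 6 tested glucose-responsive MLX targets and regulators in Vector (1 higher, 1 lower), 1 in B4-4 (higher) and 0 in Addback. Of 5 tested genes of the VEGF family and its receptors, 1 was called lower in Vector, 3 in B4-4 (2 higher, 1 lower) and 3 in Addback (1 higher, 2 lower). For both lists the shares of all genes called were again 15.3%, 19.9% and 16.9%. Without both B4-4 NA libraries 3 of the 6 MLX genes were called in Vector (2 higher, 1 lower), against 25.4% of all genes. The other counts of these lists in Vector and Addback did not change.

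Genes whose profile lay close to the 3 most variable members were found among 10452 candidates by the root mean square distance between centred log2 CPM over the 12 libraries. CA9 was nearest to FOS (0.45), EGLN3 (0.69) and DUSP1 (0.72), ALDOC to SELENBP1 (0.27), with ZMIZ1 (0.30) also close, and PFKFB4 to SLC6A8 (0.26), RAB40C (0.28) and KDM6B (0.30). FOS and DUSP1 are immediate-early genes, induced within minutes of a stimulus. The B4-4 NA pair is among the 12 libraries.

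Some counts are uncertain for reasons of sequence. CA9 overlaps ARHGEF39 on the opposite strand, and the 9 other members also have an antisense or overlapping gene in the annotation; whether the counting used strand is not given in the sources used here. PGK1, LDHA and ENO1 have processed pseudogene copies with which reads can be shared. In such bulk samples, fewer cells expressing a gene and less RNA per cell cannot be told apart.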

How the data were processed

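RNA was selected by polyA and made into stranded libraries (250 ng input, 300 bp insert, 150 bp paired reads), per the labels' protocols. The authors deposited raw read counts per Ensembl gene in 1 table; the submitters' processing notes list featureCounts 1.5.3, SAMtools 1.4.1 and TopHat2 2.1.1, and builds GRCh38, hg19 and hg38 with no roles. For strand setting and annotation, both were not given in the sources used here. Gene names and coordinates here are from GENCODE on GRCh38, 1-based. Genes were filtered with filterByExpr (15749 tested, at least 99.87% of counts in every library), scaled by TMM (factors 0.9674 to 1.029) and tested with edgeR 4.0.16 (R 4.3.3) by robust quasi-likelihood over 6 group means in all 12 libraries, in 12 comparisons; SE is the log2 change over the square root of F. Method recovery was tested on simulated data. DESeq2 1.42.0, RLE and upper-quartile factors, no filter, a replicate block, a library number term, the compared groups alone and each library left out were alternatives. Named genes were the 10 members, HIF1A, EPAS1, TXNIP, ITGB4, and from each related list up to 4 called genes of smallest p per comparison, except where stated. Members and lists were chosen with earlier results of these data known. One gene with a profile close to ALDOC is not reported here.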

Additional observations from a re-analysis of the deposited data

Results flagged for a closer look

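The test of the difference in EDTA effect between derivatives (edgeR, log2 scale, adjusted p over all genes) was read for the members and a selection of related genes. Apart from HIF1A, EPAS1 and TXNIP, those related genes had been named because they were called, so their number carries no weight. Of all tested genes, 27.0% were called for B4-4 minus Vector, 24.2% for Addback minus Vector and 8.78% for Addback minus B4-4. Each gene of the selection that was called is listed here. Among the members this was PGK1, where the effect in Addback exceeded that in Vector by 0.53 (adjusted p = 0.0432), a call lost in 9 of the 12 fits that left out 1 library; its Vector effect of -0.13 was not itself called. Differences that held in all 12 such fits, each against Vector, were 0.59 in Addback and 0.54 in B4-4 for PFKP, 0.81 in Addback for PGAM1, 1.26 in B4-4 for TIGAR, 1.30 in Addback for SLC16A3, 2.08 in Addback and 1.87 in B4-4 for STC2, 4.25 in Addback and 2.89 in B4-4 for ANGPTL4, 1.0 in B4-4 for HIF1A and -0.65 in Addback for EPAS1.

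The other differences were lost in some of the fits that left out 1 library. Against Vector they were 0.53 in B4-4 for PGAM1 (lost in 5 of 12), 0.59 in Addback for TIGAR (5), 0.43 in B4-4 for PKM (8) and 0.60 in B4-4 for SLC16A3 (4). For Addback minus B4-4 they were -0.68 for TIGAR (5), 0.70 for SLC16A3 (7), -0.94 for HIF1A (1) and -0.59 for EPAS1 (4). Differences that share Vector or B4-4 libraries are not independent of each other.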

How the results depend on the processing

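The numbers of members called depended most on the B4-4 NA pair. With 1 library left out in turn they ranged, for EDTA against NA, from 0 to 3 in Vector, 0 to 8 in B4-4 and 0 to 4 in Addback; for B4-4 against Vector from 0 to 7 in NA and 0 to 7 in EDTA; for Addback against B4-4 from 0 to 8 and 0 to 2; for Addback against Vector from 0 to 6 and 1 to 9; and for the differences B4-4 minus Vector, Addback minus Vector and Addback minus B4-4 from 0 to 7, 0 to 4 and 0 to 6. Shares in brackets from here on are of all genes tested in the same fit. They are not a like background for fits without the B4-4 NA pair, which was dropped for the spread of these genes. Without both B4-4 NA libraries the counts were 3 for EDTA in Vector (25.4%), 4 for EDTA in Addback (27.4%) and 8 for B4-4 against Vector in EDTA (51.4%). They were 2 for Addback against B4-4 in EDTA (23.8%) and 6 and 9 for Addback against Vector in NA and EDTA (45.4% and 39.3%). For Addback minus Vector the count was 4 (33.7%). Without both Addback EDTA libraries as well the counts were 4 for EDTA in Vector (36.3%), 8 for B4-4 against Vector in EDTA (59.1%) and 8 for Addback against Vector in NA (54.1%). With the compared groups alone they were 4 and 2 for EDTA in Vector and Addback (31.4% and 14%) and 8 for B4-4 against Vector in EDTA (56.3%). In that setting Addback against B4-4 in NA called 0 (8.72%), Addback against Vector in NA 9 (62.7%) and Addback minus Vector 4 (30.1%). Without the filter the counts were 1 for EDTA in Vector (8.63%), 1 for B4-4 against Vector in EDTA (20.8%) and 2 for Addback against Vector in NA (17.8%). For the differences they were 2 for Addback minus Vector (12.5%) and 1 for Addback minus B4-4 (6.25%). RLE factors gave 0 for EDTA in Addback (16.5%) and 0 for Addback minus Vector (24.1%). Upper-quartile factors gave 0 and 0 there (15.7% and 23.7%), 1 for Addback against B4-4 in EDTA (14.5%) and 2 for Addback against Vector in NA (36.1%). The library number term, set by the Vector EDTA and B4-4 NA pairs alone, gave 0 for Addback against B4-4 in NA (25.9%). It gave 2 for Addback against Vector in NA (26%) and 1 for Addback minus B4-4 (9.68%). For B4-4 against Vector in EDTA, RLE and upper-quartile factors, the library number term, the replicate block and DESeq2 each gave 2 in place of 3. In that order the shares of all genes were 43.5%, 43.2%, 42%, 43.7% and 23.3%. DESeq2 gave 1 for EDTA in B4-4 (21.8%), 2 for Addback against B4-4 in NA (21.8%), 2 for Addback against Vector in NA (29.1%) and 2 for Addback minus Vector (24%). No deviation shared by same-numbered libraries was seen: over 15 pairs of groups the correlations of deviations ran from -0.05 to 0.07. That cannot show whether such libraries were prepared together. With the replicate block the count was 0 for EDTA in Addback (16.8%) and 0 for Addback minus Vector (24.5%). ALDOC in B4-4 against Vector (EDTA) was also lost with the block (adjusted p = 0.0547). Beyond this call and the PGK1 calls behind those counts of 0, no member's call changed with the block. The cause of these changes was not tested.

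Changes that reversed lay between the values without B4-4 NA library 1 and without library 2. For EDTA in B4-4 these were 3.25 and -2.09 for CA9, 1.05 and -0.58 for HK2, 0.39 and -0.27 for LDHA, and 0.75 and -0.46 for PFKFB3. For B4-4 against Vector in NA they were -1.19 and 0.78 for ALDOC, -4.38 and 0.96 for CA9, and -1.04 and 0.59 for HK2. For Addback against B4-4 in NA they were 0.83 and -1.15 for ALDOC, 0.88 and -0.77 for HK2, 0.32 and -0.36 for LDHA, and 1.22 and -0.79 for VEGFA. HK2 gave 0.80 and -0.82 for B4-4 minus Vector, and -0.94 and 0.69 for Addback minus B4-4. Beyond this pair, 2 libraries per group limit the precision.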
